A study of Homo sapiens with 6 samples.

Results

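Collagen chain genes are the genes whose symbols take the form COL, a number, A and a number, each of which encodes 1 alpha chain of a collagen. The table of protein-coding transcripts held 44 such genes among its 20288 rows, or 0.217% of them, and all 44 were kept whatever their counts. Small RNA had been sequenced from SW1736, an established line of human anaplastic thyroid cancer, a dedifferentiated and aggressive thyroid tumor. The cells were kept for 72 h in hypoxia, at 2% O2 (n = 3 libraries), or in normoxia, at 21% O2 (n = 3 libraries), with no other difference between the groups given. All 6 libraries thus came from 1 cell line, and no source used here says whether the replicates were separate cultures, and p-values therefore cover only the spread among the libraries, which may be technical. A count is a short RNA fragment that aligned to the transcript of a protein-coding gene (1 transcript per gene), not a measure of intact mRNA. Less RNA of a gene per cell cannot be told apart from a smaller share of cells that hold it.

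Collagens are the main structural proteins of the extracellular matrix. Their chains carry repeats of glycine followed by a pair of other residues, and chains of the same or of different genes wind into a rope-like helix before secretion. Fibrillar collagens form the fibrils that stiffen tissue, type IV collagens form the sheets of basement membranes, and fibril-associated collagens with interrupted helices (FACITs) bind to the surface of fibrils. In thyroid tissue the follicles rest on a basement membrane, and the enzymes that hydroxylate collagen need molecular oxygen.

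The coding sequences show the repeat that all these chains share and that gave the family its name. The first 15 codons of the longest unbroken run of glycine repeats are shown for the 3 most abundant chains, COL12A1, COL1A2 and COL8A1, for COL3A1 and COL4A3, which had the lowest p in their classes, and for COL4A2, the most abundant type IV chain. They come from GENCODE transcripts, 5′ to 3′ on the coding strand, and the capitals mark the glycine codon that opens each repeat. The last codon of the COL8A1 stretch also encodes glycine.
COL1A2: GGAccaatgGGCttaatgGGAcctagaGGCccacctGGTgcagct
COL3A1: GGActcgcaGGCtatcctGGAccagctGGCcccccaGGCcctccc
COL4A2: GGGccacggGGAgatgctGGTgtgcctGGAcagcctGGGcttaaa
COL4A3: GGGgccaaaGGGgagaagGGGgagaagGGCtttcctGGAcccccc
COL8A1: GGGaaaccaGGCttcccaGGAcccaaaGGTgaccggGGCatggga
COL12A1: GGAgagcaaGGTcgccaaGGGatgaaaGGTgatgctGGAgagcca

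Among the chains shown, the run was longer in the fibrillar chains than in the others. It held 339 repeats in COL1A2 and 343 in COL3A1, against 66 in COL4A2, 39 in COL4A3, 61 in COL8A1 and 32 in COL12A1. Because the repeats are alike, fragments could align to more than 1 chain, so the 20-base words of each transcript were compared with those of the other listed transcripts. Of 42 chains that could be matched, the share of words also found in another collagen chain had a median of 0.104%, and its highest value was 1.44%, in COL1A1. Words shared with any other transcript made up at most 4.05%, in COL8A1, and 1.99% in COL1A1.

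Type IV chains are encoded in head-to-head gene pairs that are read outwards from a shared stretch of DNA. The RefSeq promoter windows (GRCh38.p14, 250 bases before to 50 after a start) of COL4A1 and COL4A2 overlapped by 226 bases at chr13:110307108-110307333, and those of COL4A3 and COL4A4 by 82 bases at chr2:227164374-227164455. Those of COL4A5 and COL4A6 overlapped by 121 bases at chrX:108439588-108439708. The windows of COL4A2 and COL4A3 are shown on their plus strand, with the bases that also lie in the window of the partner gene in capitals. They are shown because the members of a pair differed in level, as given with the partner chains.
COL4A2, chr13:110307034-110307333, plus strand: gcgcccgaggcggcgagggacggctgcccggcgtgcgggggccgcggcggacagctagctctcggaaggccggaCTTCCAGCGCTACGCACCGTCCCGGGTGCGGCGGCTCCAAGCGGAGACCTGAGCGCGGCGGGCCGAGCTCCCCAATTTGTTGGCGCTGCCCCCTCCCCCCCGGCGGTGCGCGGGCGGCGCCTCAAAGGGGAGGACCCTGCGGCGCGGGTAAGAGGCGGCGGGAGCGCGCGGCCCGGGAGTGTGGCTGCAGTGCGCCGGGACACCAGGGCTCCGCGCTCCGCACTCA
COL4A3, chr2:227164374-227164673, plus strand: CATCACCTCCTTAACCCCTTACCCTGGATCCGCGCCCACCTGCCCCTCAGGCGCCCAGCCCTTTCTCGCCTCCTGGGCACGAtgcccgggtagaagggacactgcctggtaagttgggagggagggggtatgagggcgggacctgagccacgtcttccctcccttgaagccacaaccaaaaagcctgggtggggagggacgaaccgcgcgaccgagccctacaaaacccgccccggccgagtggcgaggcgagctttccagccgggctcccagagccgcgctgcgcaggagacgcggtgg

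The promoter of COL12A1, the most abundant chain, is shown with the capitals at CACGT, which is ACGTG read on the other strand, the core of the element that hypoxia-inducible factors bind. The window also holds 1 match to GCGTG, another form of that core, which is left in lower case.
COL12A1, chr6:75206004-75206303, minus strand: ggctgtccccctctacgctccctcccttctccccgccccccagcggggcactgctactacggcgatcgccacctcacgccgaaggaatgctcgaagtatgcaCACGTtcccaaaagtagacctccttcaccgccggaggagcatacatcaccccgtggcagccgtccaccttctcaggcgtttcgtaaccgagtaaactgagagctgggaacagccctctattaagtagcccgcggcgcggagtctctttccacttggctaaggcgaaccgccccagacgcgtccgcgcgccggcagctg

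Promoter windows were found for 32 of the 44 genes (44 windows, as a gene can have several starts), among them 18 of the 27 genes tested below. None was found for COL1A1, COL1A2, COL3A1 or COL8A1. ACGTG, searched on both strands, was in 7 of these windows (15.9%), against 21.4% of the 35116 windows of all genes. The 7 windows belong to COL4A3, COL5A1, COL6A6, COL11A2, COL12A1 and COL15A1. The windows of COL5A1 overlap and share the same match. GCGTG, the other common form of that core, was in 16 windows (36.4%), against 36.5% of all. CCAAT was in 14 (31.8%), against 34.6% of all. A match is a run of letters and not a measured binding site.

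The library totals were 1469151 to 1781753 counts in hypoxia and 1543856 to 1610177 in normoxia. The label of the cells was checked against marker genes. PAX8, a transcription factor of thyroid cells, had 146 normalized CPM in hypoxia and 129 in normoxia, while TG, the thyroglobulin gene, had at most 6 counts in any library. Of 6 epithelial markers, the keratins KRT7 and KRT19 were abundant, at 242 and 303 normalized CPM in hypoxia and 240 and 268 in normoxia. KRT8 and KRT18 were lower, at 21.4 and 32.4 in hypoxia and 20.5 and 33.6 in normoxia. CDH1 and EPCAM had at most 6 and 5 counts in any library. VIM, a filament gene of mesenchymal cells, rose, at 4553 ± 159.7 normalized CPM in hypoxia and 3473 ± 308 in normoxia (SD, n = 3 each; log2 fold change 0.39, adjusted p = 0.0198 from edgeR), and was the 1 called gene of the 6 mesenchymal markers. Of the others, CDH2, ZEB1 and ZEB2 had 250, 115 and 40.9 normalized CPM in hypoxia and 222, 102 and 31.4 in normoxia. TWIST1 and S100A4 were near the floor, with at most 2 and 5 counts in any library. All 6 fibroblast markers (PDGFRA, PDGFRB, THY1, DCN, LUM and FAP) had under 10 counts in every library, and their summed level was 9.22 to 16.7 normalized CPM in hypoxia and 15.2 to 18.6 in normoxia (DCN, LUM and FAP also stand in the lists of collagen partners and proteases used below). The 6 leukocyte markers summed to 12.5 to 23.9 normalized CPM in hypoxia and 9.64 to 19.0 in normoxia, and the 6 endothelial markers to 29.4 to 37.4 in hypoxia and 20.1 to 41.1 in normoxia.

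SW1736 cells held fragments of many collagen chains, but a few genes supplied most of them. COL12A1, a FACIT, COL1A2, a chain of type I collagen, and COL8A1, a short-chain collagen of vessel walls and the eye, gave 59.3% of the summed collagen level, and the 7 most abundant chains gave 81.1%. Their means over the 6 libraries were 608, 585 and 368 normalized CPM (CPM, each library's counts scaled to a common total with TMM factors). The next were COL5A1 at 178, COL6A3 at 144, COL1A1 at 142 and COL4A2 at 111 normalized CPM. COL4A1, COL7A1, COL16A1, COL4A3 and COL18A1 followed with 51.8, 41.2, 39.5, 38.9 and 34.0. All 44 chains together made up 0.297% ± 0.0138 of the mRNA counts in hypoxia and 0.308% ± 0.00555 in normoxia (SD, n = 3 each).

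Longer transcripts give more fragments, so levels of different genes were compared per kb of transcript. On that scale COL1A2 was highest at 108 normalized CPM per kb, with a range of 101 to 116 over the 6 libraries. COL8A1 followed at 64.5 (53.7 to 77.0) and COL12A1 at 51.9 (45.3 to 61.4), and the ranges of these neighbors overlapped. COL1A1 at 21.1 (17.5 to 23.7), COL5A1 at 21.0 (18.3 to 22.7) and COL4A2 at 17.7 (14.8 to 21.1) formed a next step with overlapping ranges. COL6A3 came next at 13.4 (11.5 to 16.0), and COL9A3 at 9.34 (4.91 to 11.1) overlapped with COL4A1 at 7.93 (4.36 to 10.8). Per kb of coding sequence alone, COL8A1 moved ahead of COL1A2, at 165 against 143 normalized CPM per coding kb, as its coding part is short.

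**Figure D1:**
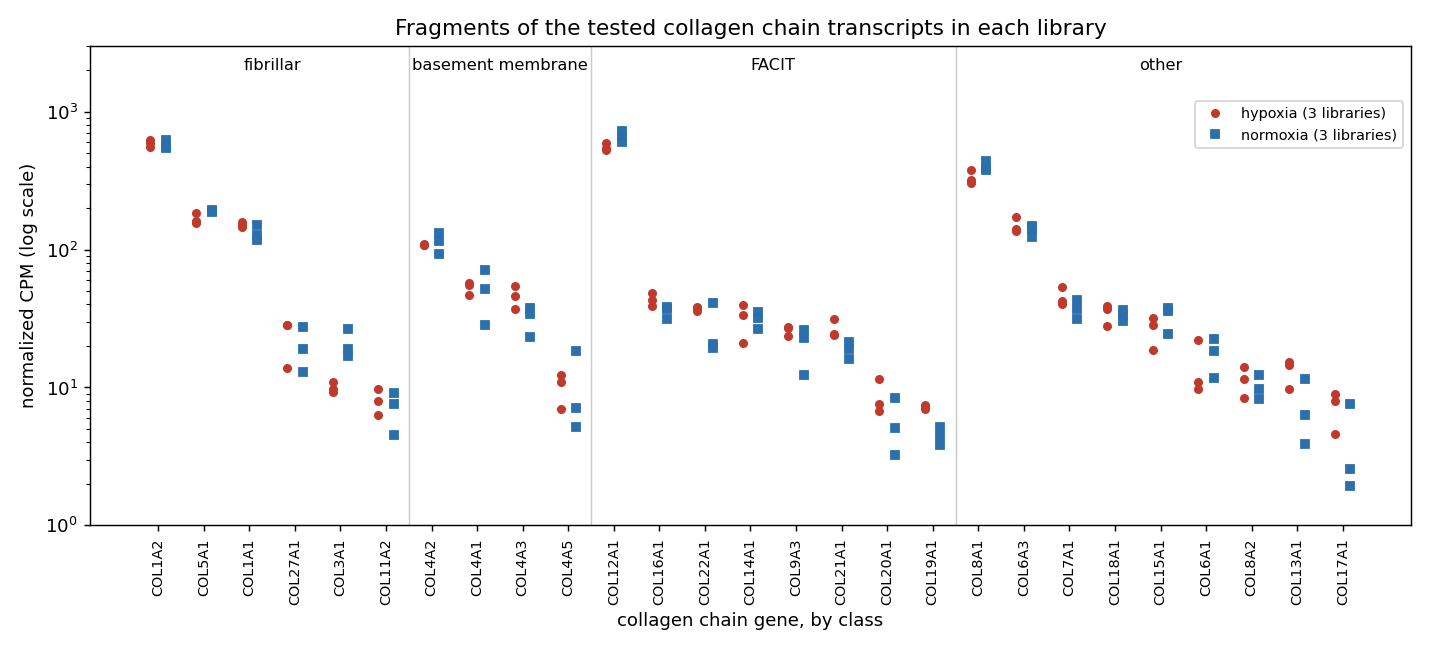
Normalized CPM (log axis) of the 27 collagen chain genes that passed the filter on low counts, by class, with 1 point for each of the 3 hypoxic libraries (red circles, left) and 3 normoxic libraries (blue squares, right). COL1A2, COL12A1 and COL8A1 stand above the rest, and the groups overlap in most genes.

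The remaining 17 chains were too low to test, with at most 16 counts in any library and a mean of at most 5.97 normalized CPM in either group. Together they gave 1.68% of the summed collagen level. They were COL2A1, COL5A2, COL5A3, COL11A1 and COL24A1 of the fibrillar class, COL4A4 and COL4A6 of the basement membrane class, and the FACITs COL9A1 and COL9A2. Of the other class they were COL6A2, COL6A5, COL6A6, COL10A1, COL23A1, COL25A1, COL26A1 and COL28A1. Among them are COL2A1, the chain of cartilage fibrils, and COL10A1, a chain of growth plate cartilage. A member can pass the filter through 1 group alone, so counts over the 27 do not stand for all 44.

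None of the 27 tested chains was called in either direction by edgeR's quasi-likelihood test at a Benjamini-Hochberg adjusted p under 0.05. Over all 11082 mRNA features tested, 66 (0.596%) were called higher and 18 (0.162%) lower. DESeq2 and limma-voom also called 0 of the chains. At an unadjusted p under 0.05 in edgeR, 2 chains were higher in hypoxia (COL4A3 and COL13A1), where the background was 5.58%, and 3 were lower (COL3A1, COL8A1 and COL12A1), where it was 4.67%. DESeq2 gave 1 and 3 at that level, and limma-voom gave 3 and 3. The 3 hypoxic libraries were each above the 3 normoxic ones in 3 chains (COL16A1, COL19A1 and COL21A1; background 8.27%) and below them in 4 (COL3A1, COL5A1, COL8A1 and COL12A1; background 7.01%). The members' shares were 7.41% and 11.1% at that p, and 11.1% and 14.8% without overlap, each resting on at most 4 genes. Of the 27 log2 fold changes of hypoxia over normoxia, 19 were above 0 and 8 below, with a median of 0.17, against 5432 above 0 and 5650 below and a median of -0.01 over all mRNA features tested. COL13A1, COL19A1, COL20A1 and COL4A5 had at least 10 counts in all 3 hypoxic libraries but not in all 3 normoxic ones. They could pass the filter through hypoxia alone, and their log2 fold changes were 0.85, 0.69, 0.64 and -0.01. With no low-count filter the median of the chains was 0.056, so 19 and 8 only describe the members that passed. Across the 27 genes, which share the same libraries, the log2 fold change had a correlation of -0.40 with the log2 level and of 0.04 with GC content (25 genes), both given as a description.

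**Figure D2:**
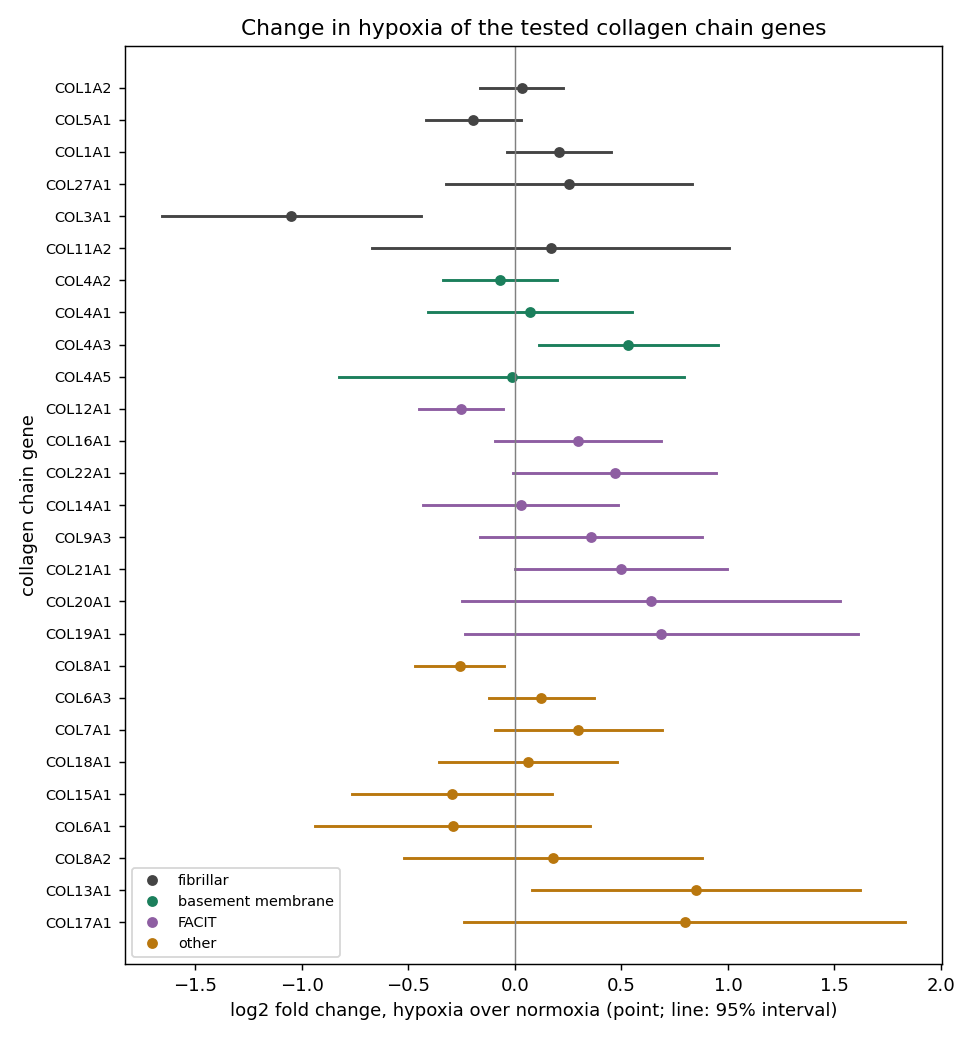
Log2 fold change of hypoxia over normoxia (x axis) with its 95% interval for each of the 27 tested collagen chain genes (y axis), colored by class. The intervals of COL3A1, COL12A1, COL8A1, COL4A3 and COL13A1 leave out 0, and none of the 27 passed the adjusted test.

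The fibrillar class had 6 tested members of 11, with a median log2 fold change of 0.10. COL1A2 (chr7:94394895-94431227, plus strand) encodes the alpha 2 chain of type I collagen, the chief collagen of bone, skin and scar. It had 1020, 1028 and 799 counts in hypoxia, against 875, 967 and 860 in normoxia. The groups overlapped, at 625, 593 and 555 normalized CPM in hypoxia and 567, 621 and 546 in normoxia. Its log2 fold change was 0.03 with a 95% interval of -0.16 to 0.23, the narrowest bound on any change among the fibrillar chains. COL1A1 (chr17:50184101-50201632, minus strand), the alpha 1 chain of type I collagen, had 260, 253 and 218 counts in hypoxia and 196, 235 and 185 in normoxia. Its normalized levels overlapped too, at 152 ± 6.78 CPM in hypoxia and 132 ± 17.3 in normoxia (SD, n = 3 each), with a log2 fold change of 0.21 (-0.04 to 0.45).

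COL3A1 (chr2:188974373-189012746, plus strand) encodes the chain of type III collagen, which forms fibrils with type I in vessels, skin and wounds, and it was the chain with the lowest p. It had 18, 16 and 14 counts in hypoxia, against 26, 41 and 30 in normoxia. In normalized CPM the hypoxic libraries averaged 9.99 ± 0.933 and the normoxic ones 20.7 ± 4.98 (SD, n = 3 each), and the groups did not overlap. The log2 fold change was -1.05 (standard error 0.300, 95% interval -1.66 to -0.44), with an unadjusted p of 0.00123 and an adjusted p of 0.0952 from edgeR, so it missed the threshold. Over the alternatives tried, its adjusted p ranged between 0.0754 and 0.389. The fibroblast marker LUM, which binds collagen fibrils, had 3, 3 and 2 counts in hypoxia and 6, 9 and 5 in normoxia, also without overlap. It was named after its values were seen, and the other 5 fibroblast markers overlapped between the groups. Their means were 2.72 normalized CPM in hypoxia and 2.34 in normoxia for DCN, 4.02 in hypoxia and 3.20 in normoxia for PDGFRB, and 2.41 in hypoxia and 2.15 in normoxia for THY1. They were 1.67 in hypoxia and 1.72 in normoxia for FAP, and 1.47 in hypoxia and 2.77 in normoxia for PDGFRA. The part of fibroblast-type RNA in the COL3A1 difference was not tested.

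COL5A1 (chr9:134641803-134844843, plus strand), a chain of the type V collagen that starts and limits fibrils, had 253, 278 and 263 counts in hypoxia, against 297, 291 and 299 in normoxia. Each hypoxic library lay below each normoxic one after scaling, at 166 ± 14.7 normalized CPM in hypoxia and 190 ± 2.70 in normoxia (SD, n = 3 each). Its log2 fold change was -0.19 (95% interval -0.42 to 0.03; adjusted p = 0.569 from edgeR). The last tested fibrillar chains were low: COL27A1, a chain of cartilage, had 20 to 49 counts in hypoxia and 20 to 43 in normoxia, and COL11A2, a partner in cartilage fibrils, had 11 to 14 in hypoxia and 7 to 14 in normoxia. Their log2 fold changes were 0.25 and 0.17.

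The basement membrane class had 4 tested members of 6, with a median log2 fold change of 0.03. COL4A1 and COL4A2, on chromosome 13, encode the chains of the type IV network found in nearly all basement membranes. COL4A2 had 176, 189 and 155 counts in hypoxia and 179, 206 and 146 in normoxia. COL4A1 had 91, 81 and 82 counts in hypoxia and 44, 110 and 82 in normoxia. For both genes the hypoxic values lay inside the normoxic range, and the log2 fold changes were -0.07 (95% interval -0.34 to 0.20) for COL4A2 and 0.07 (-0.41 to 0.55) for COL4A1.

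COL4A3 (chr2:227164624-227314792, plus strand), a chain best known from the kidney filter and the target in Goodpasture disease, was the type IV chain with the largest log2 fold change. It had 75, 95 and 53 counts in hypoxia, against 36, 59 and 54 in normoxia. After scaling, hypoxia replicate 3 at 36.8 normalized CPM lay below normoxia replicate 2 at 37.9, so the groups overlapped by 1 pair of libraries. The means were 45.9 ± 8.97 normalized CPM in hypoxia and 31.8 ± 7.60 in normoxia (SD, n = 3 each). This gave a log2 fold change of 0.53 (standard error 0.207, 95% interval 0.11 to 0.95), with an unadjusted p of 0.0142 and an adjusted p of 0.301 from edgeR, and was 0.35 without normoxia replicate 1. COL4A5, a chain that joins COL4A3 and COL4A4 in the kidney, had 20, 19 and 10 counts in hypoxia and 11, 8 and 29 in normoxia, with a log2 fold change of -0.01.

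The FACIT class had 8 tested members of 10, and its median log2 fold change was 0.41, with 7 of the 8 above 0. Among the 7, COL19A1 and COL20A1, at 0.69 and 0.64, had at least 10 counts in every hypoxic library but not in every normoxic one. The filter could admit these genes through hypoxia alone, so the median and the 7 of 8 rest partly on that selection. The exception among the 8 was the most abundant member of the class. COL12A1 (chr6:75084326-75206267, minus strand), which encodes a FACIT that links type I fibrils to the surrounding matrix, had 964, 943 and 765 counts in hypoxia, against 926, 1034 and 1133 in normoxia. In normalized CPM these were 591, 544 and 532 in hypoxia and 599.9, 665 and 719 in normoxia, so the groups did not overlap, though hypoxia replicate 1 lay close to normoxia replicate 1. The log2 fold change was -0.25 (standard error 0.0970, 95% interval -0.45 to -0.06), with an unadjusted p of 0.0134 and an adjusted p of 0.293 from edgeR. COL12A1 had the ACGTG core in the promoter window printed above. Of the other tested chains with that core, COL4A3 and COL11A2 had log2 fold changes of 0.53 and 0.17, and COL5A1 and COL15A1 of -0.19 and -0.30.

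The lower FACITs had log2 fold changes between 0.03 and 0.69. COL16A1, found near basement membranes and small fibrils, had 79, 75 and 56 counts in hypoxia and 57, 60 and 49 in normoxia. COL21A1 had 51, 42 and 35 in hypoxia and 33, 25 and 30 in normoxia, and COL19A1 had 12, 13 and 10 in hypoxia and 8, 6 and 7 in normoxia. In these 3 genes the scaled groups did not overlap, with log2 fold changes of 0.30, 0.50 and 0.69, and none had an unadjusted p under 0.05 (adjusted p = 0.637, 0.482 and 0.648 from edgeR). COL22A1, a chain of tissue junctions, had 62, 62 and 55 counts in hypoxia and 32, 30 and 64 in normoxia, so that normoxia replicate 3 stood with the hypoxic libraries, and its log2 fold change was 0.47 (edgeR, adjusted p = 0.490), or 0.89 without that library. COL9A3, a type IX chain of cartilage, had 45, 41 and 39 counts in hypoxia and 35, 19 and 41 in normoxia, with 0.36. COL14A1, which binds fibrils, and COL20A1 had log2 fold changes of 0.03 and 0.64, and their groups overlapped.

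The other class holds the collagens of beaded filaments, anchoring fibrils, short-chain networks, membranes and multiplexins, and 9 of its 17 members were tested. COL8A1 (chr3:99638475-99799226, plus strand) had 500, 553 and 547 counts in hypoxia, against 678, 592 and 601 in normoxia. In normalized CPM the hypoxic libraries, at 306, 319 and 380.1, lay below the normoxic ones, at 439, 380.5 and 382, but the highest hypoxic and the lowest normoxic value were nearly equal. The log2 fold change was -0.26 (standard error 0.104, 95% interval -0.47 to -0.05), with an unadjusted p of 0.0173 and an adjusted p of 0.325 from edgeR. COL8A2, the other type VIII chain, had 12 to 23 counts in hypoxia and 13 to 19 in normoxia, with a log2 fold change of 0.18.

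COL13A1 (chr10:69801880-69964275, plus strand), a transmembrane collagen of cell contacts and of the nerve-muscle junction, had 25, 17 and 21 counts in hypoxia, against 6, 18 and 10 in normoxia. After scaling, normoxia replicate 2 at 11.6 normalized CPM lay above hypoxia replicate 2 at 9.80, so the groups overlapped. This gave a log2 fold change of 0.85 (standard error 0.380, 95% interval 0.08 to 1.62), with an unadjusted p of 0.0315 and an adjusted p of 0.412 from edgeR. It was 0.55 without normoxia replicate 1 and 1.35 without normoxia replicate 2. COL17A1, the transmembrane collagen of hemidesmosomes, had 13, 8 and 13 counts in hypoxia and 3, 4 and 12 in normoxia, and its log2 fold change was 0.80 (edgeR, adjusted p = 0.628).

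**Figure D3:**
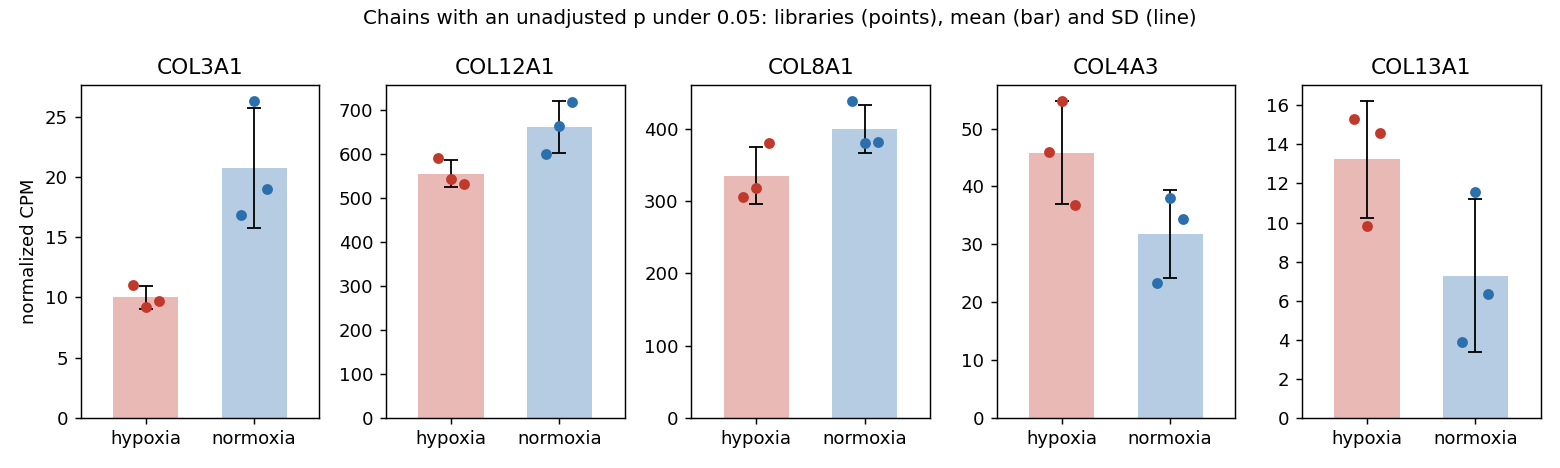
Normalized CPM of the 5 chains with an unadjusted p under 0.05 in edgeR, with each library as a point, the mean as a bar and the SD as a line (n = 3 each; hypoxia left, normoxia right; each panel has its own axis from 0). COL3A1, COL12A1 and COL8A1 were lower in hypoxia without overlap, while COL4A3 and COL13A1 had higher means in hypoxia with overlapping libraries.

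COL6A3, a chain of the beaded filaments of type VI collagen, had 280, 246 and 197 counts in hypoxia and 230, 220 and 194 in normoxia, with overlapping groups and a log2 fold change of 0.12 (95% interval -0.12 to 0.37). COL6A1, its partner, had 36, 19 and 14 counts in hypoxia and 18, 35 and 29 in normoxia, with -0.29. COL7A1, which forms the anchoring fibrils of skin, had 88, 73 and 58 counts in hypoxia and 66, 49 and 58 in normoxia, with 0.30. The multiplexins carry fragments that act on vessels. Of these COL18A1, the source of endostatin, had 64, 64 and 40 counts in hypoxia and 52, 47 and 57 in normoxia, with 0.06. COL15A1 had 46, 55 and 27 in hypoxia and 55, 38 and 59 in normoxia, with -0.30. The groups overlapped in all of these genes.

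Summed over a class, the levels differed little between the groups. All 44 chains gave 2706, 2532 and 2515 normalized CPM in hypoxia and 2616, 2749 and 2685 in normoxia. The fibrillar sum was 963 ± 31.6 in hypoxia and 961 ± 62.8 in normoxia, and the basement membrane sum was 222 ± 6.74 in hypoxia and 214 ± 35.4 in normoxia (SD, n = 3 each). The FACIT sum was 740.1 ± 51.7 in hypoxia and 808 ± 68.1 in normoxia, and the sum of the other class was 659 ± 29.1 in hypoxia and 701 ± 38.9 in normoxia (SD, n = 3 each). In each of these sums the groups overlapped. The FACIT sum follows COL12A1, and its log2 ratio of -0.13 has the opposite sign to the median of the class. Without COL12A1, a sum chosen after the values were seen, the other 9 FACITs gave 207, 182 and 165 normalized CPM in hypoxia and 148, 128 and 163 in normoxia, so that each hypoxic library was above each normoxic one. Without COL8A1, likewise chosen, the rest of the other class gave 377, 308 and 286 in hypoxia and 306, 293 and 303 in normoxia, and the groups overlapped.

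**Figure D4:**
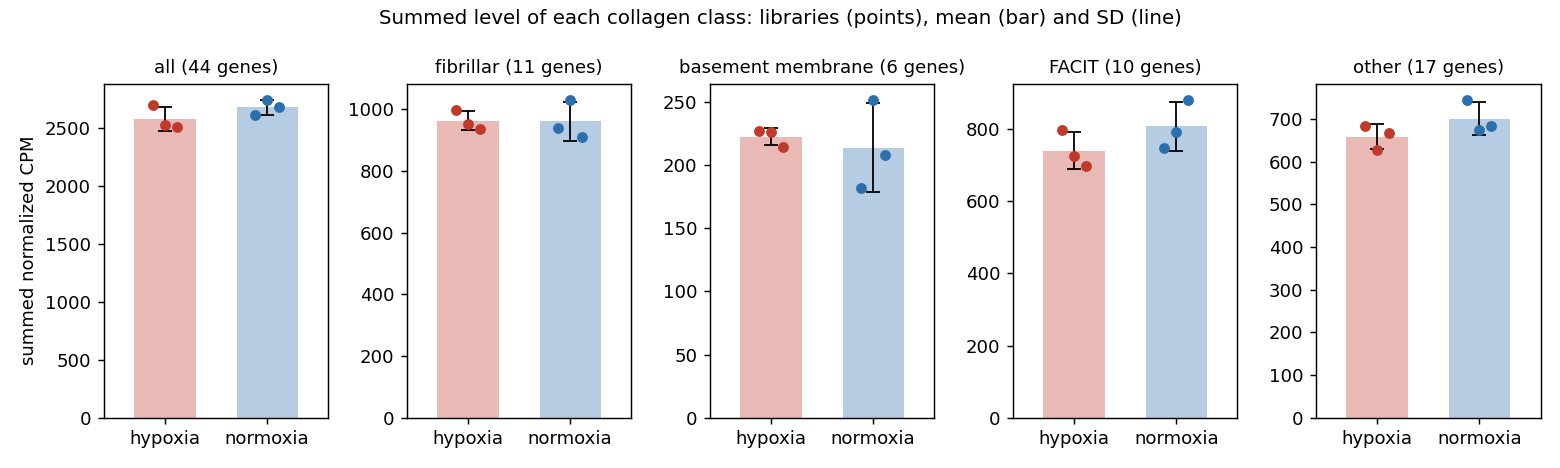
Summed normalized CPM of all 44 collagen chain genes and of each class, with each library as a point, the mean as a bar and the SD as a line (n = 3 each; hypoxia left, normoxia right; each panel has its own axis from 0). The hypoxic and normoxic libraries overlap in all 5 panels.

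Chains that assemble into the same helix need not be measured at the same level. Type I collagen is known for helices of a pair of alpha 1 chains with 1 alpha 2 chain, whereas the fragments of COL1A1 were fewer than those of COL1A2, with a count ratio of 0.258 ± 0.0136 in hypoxia and 0.227 ± 0.0143 in normoxia (SD, n = 3 each). Per kb of transcript the mean ratio over the 6 libraries was 0.195. Each hypoxic ratio exceeded each normoxic one. The ratio of COL3A1 to COL1A1 was 0.0692, 0.0632 and 0.0642 in hypoxia, against 0.133, 0.174 and 0.162 in normoxia, again without overlap. Both comparisons gave p = 0.1 in an exact two-sided permutation test, the smallest that 3 libraries against 3 allow, and 0.25 after Benjamini-Hochberg adjustment over the 5 pairs with at least 10 counts in every library. The ratio of COL4A1 to COL4A2 was 0.492 ± 0.0549 in hypoxia and 0.447 ± 0.175 in normoxia (SD, n = 3 each; exact permutation test, p = 1). COL6A3 to COL6A1, at 11.6 ± 3.36 in hypoxia and 8.58 ± 3.64 in normoxia, and COL8A1 to COL8A2, at 31.7 ± 12.4 in hypoxia and 40.9 ± 8.42 in normoxia, also overlapped (SD, n = 3 each; exact permutation test, p = 0.2 and 0.3).

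Some partners were far apart in level per kb. Of the head-to-head pairs, COL4A1 had 0.449 times the level per kb of COL4A2, while COL4A3 had 10.1 times that of COL4A4 and COL4A5 had 6.20 times that of COL4A6. COL4A4 had 6, 7 and 8 counts in hypoxia and 4, 8 and 12 in normoxia. COL5A2, the partner of COL5A1 in the common form of type V collagen, had only 2, 1 and 4 counts in hypoxia and 7, 4 and 4 in normoxia. COL6A2, the third obligate chain of type VI collagen beside COL6A1 and COL6A3, had 2, 3 and 0 counts in hypoxia and 2, 3 and 3 in normoxia. Per kb, COL6A3 had 13.4 normalized CPM, COL6A1 had 3.75 and COL6A2 had 0.389. These are levels of fragments, and the part of fragment recovery in the gaps between genes was not tested.

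**Figure D5:**
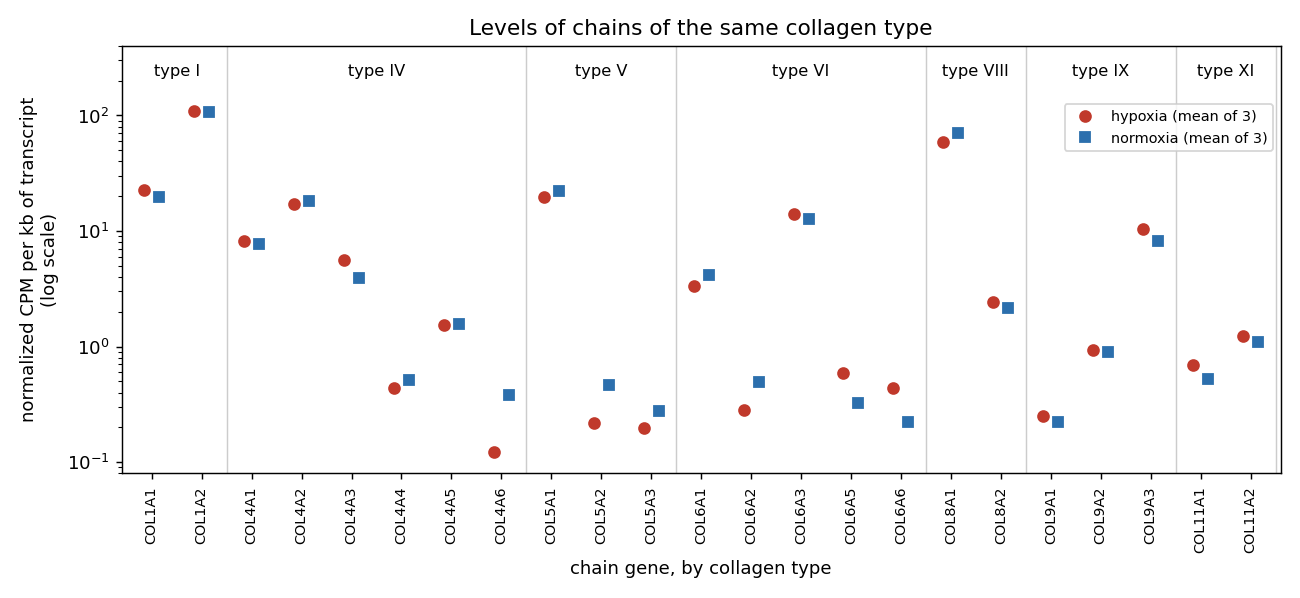
Mean normalized CPM per kb of transcript (log axis) of chains of the same collagen type in hypoxia (red circles, left; mean of 3 libraries) and normoxia (blue squares, right; mean of 3 libraries). Chains of types IV, V, VI, VIII and IX differ widely in level, while both groups lie close together for the abundant chains.

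Genes that modify, export, crosslink, bind or cut collagen were examined beside the chains. Of 68 such genes, 45 were tested, and 3 rose in hypoxia, 0 fell and 42 did not pass the test, against the background of 0.596% called higher and 0.162% called lower. At an unadjusted p under 0.05 in edgeR, 6 of the 45 were higher and 3 lower, against 5.58% and 4.67% of all mRNA features tested. The median log2 fold change of the 45 was -0.01, as was that of all mRNA features. The genes were listed with earlier results of these data known, so the comparisons with the background do not test the list. P4HA1, a catalytic subunit of the prolyl hydroxylase that makes collagen helices stable, had 248, 287 and 216 counts in hypoxia, against 133, 107 and 170 in normoxia. Its hypoxic libraries lay above all normoxic ones, at 156 ± 8.37 normalized CPM in hypoxia and 87.6 ± 19.6 in normoxia (SD, n = 3 each; log2 fold change 0.83, standard error 0.135, adjusted p = 0.000323 from edgeR).

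The others that rose were crosslinking enzymes. LOX, a lysyl oxidase that joins collagen and elastin molecules, had 155, 163 and 160 counts in hypoxia, against 71, 80 and 107 in normoxia (log2 fold change 0.85, standard error 0.154, adjusted p = 0.00136 from edgeR). LOXL2, a related oxidase that acts on type IV collagen, had 106, 138 and 119 counts in hypoxia, against 54, 76 and 63 in normoxia (log2 fold change 0.87, standard error 0.170, adjusted p = 0.00353 from edgeR). In both genes no hypoxic library was as low as any normoxic one. Left out 1 library at a time, LOXL2 lost its call without normoxia replicate 1 (adjusted p = 0.0542) and without hypoxia replicate 2 (adjusted p = 0.0660), both from edgeR.

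By list, 1 of 18 tested genes of chain modification and folding rose, and 2 of 9 of export, propeptide cleavage and crosslinking. None of the 9 tested receptors, the 2 proteases or the 7 partners of fibrils and basement membranes passed. The most abundant gene of each list did not pass the test either. PLOD2, which hydroxylates collagen lysines, had 313 ± 13.4 normalized CPM in hypoxia and 248 ± 36.6 in normoxia (SD, n = 3 each), with a log2 fold change of 0.33 and an adjusted p of 0.168 from edgeR. PXDN, which crosslinks type IV collagen, had 479 normalized CPM in hypoxia and 449 in normoxia. The integrin subunit ITGB1, shared by the collagen-binding integrins, had 1236 in hypoxia and 1024 in normoxia, and MMP14, a membrane protease that cuts fibrils, had 707 in hypoxia and 627 in normoxia. FN1, the fibronectin gene, had 20288 ± 2553 normalized CPM in hypoxia and 19985 ± 4669 in normoxia (SD, n = 3 each), far above any collagen chain.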

How the data were processed

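Small RNA libraries of SW1736 cells were made with CATS, which tails RNA instead of ligating adapters. The authors trimmed reads and aligned them to housekeeping RNAs, miRNAs, precursors and GENCODE protein-coding transcripts in turn, and counted with eXpress. Only reads left unaligned after the transcript references were mapped to hg38. FastQC, Bowtie and Bowtie2 are named in the submitters' processing notes, and strand handling is not given in the sources used here. The deposited values are raw counts per feature. The methods describe reads on coding parts, while the length column holds whole transcripts, so per-kb levels are approximate.

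The miRNA and mRNA tables were joined, filtered (filterByExpr), scaled by TMM and tested with edgeR 4.0.16 (robust quasi-likelihood, Benjamini-Hochberg over 11276 features, R 4.3.3). The script was tested on simulated data. Alternatives were DESeq2 1.42.0, limma-voom 3.58.1, other scalings, no filter, the mRNA table alone, non-robust dispersion, a replicate block and each library left out. Intervals are 95%. At 3 libraries a group, these totals limit the precision of low genes most. No pair of libraries of the same group agreed within sampling noise.

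Classes and pathway, marker and pair lists came from textbook knowledge. Members and lists were chosen with earlier results of these data known. Values per library are given for chains with an adjusted or unadjusted p under 0.05 or among the 12 most abundant, and for pathway genes called or most abundant in a list. Other genes were named after their values were seen. Coordinates are from GENCODE (GRCh38), matched for 42 of 44 transcripts, and promoters from RefSeq (GRCh38.p14). COLGALT1 was matched by its gene ID. No column of the authors' own comparisons was used.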

Additional observations from a re-analysis of the deposited data

How the results depend on the processing

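No collagen chain was called under any of the 14 alternatives, and the lowest adjusted p of any chain was 0.0754 (COL3A1 with no low-count filter, edgeR). The log2 fold change of COL3A1 was -1.04 with the replicate number as a block (replicate block; adjusted p = 0.136 from edgeR). Same-numbered libraries did not deviate together (correlations -0.005, 0.003 and -0.094), so the numbers were not taken as pairs. The median log2 fold change of the chains, 0.17 over 27 tested genes, was 0.056 with no low-count filter, where all chains with a count entered, and 0.030 to 0.21 with 1 library left out (0.030 without hypoxia replicate 1).

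For the 30 named genes, 402 of 420 gene-alternatives kept direction and call, 16 changed sign in 8 genes that had not been called, and 2 lost a call (LOXL2). COL14A1 was at -0.0031 and COL4A5 at 0.16 with limma-voom, and COL4A5 at 0.070 with the replicate block. With 1 library left out the log2 fold changes ran between -0.18 and 0.24 (COL14A1), -0.20 and 0.052 (COL4A2), -0.21 and 0.39 (COL4A1), -0.33 and 0.72 (COL4A5), -0.013 and 0.086 (COL1A2), -0.071 and 0.38 (COL11A2), -0.037 and 0.19 (COL18A1), -0.0060 and 0.35 (COL8A2), and 0.77 and 1.01 (LOXL2). Among chains that kept their sign, the ranges moved by over 1.5 times were -0.75 to -0.073 (COL6A1), -0.46 to -0.12 (COL15A1), 0.026 to 0.56 (COL27A1), 0.095 to 0.58 (COL9A3), 0.36 to 1.05 (COL20A1), 0.28 to 0.89 (COL22A1), 0.47 to 1.62 (COL17A1), 0.55 to 1.35 (COL13A1), 0.35 to 0.68 (COL4A3), 0.13 to 0.32 (COL1A1), 0.014 to 0.19 (COL6A3) and 0.15 to 0.41 (COL7A1), none of them called. The log2 difference of the COL4A1 to COL4A2 ratio ran between -0.16 (without normoxia replicate 1) and 0.43. The cause was not tested. Chains of few counts have wide intervals, so a change of the size seen in COL13A1 was not distinguishable from 0 at this depth after adjustment.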

Other observations

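Collagen-like stretches also occur in proteins that are not collagen chains, such as complement C1q, the collectins, the ficolins and the C1q/TNF-related proteins. A list of 21 such genes, chosen after the data were seen, had 3 tested members and none was called by edgeR (1 at an unadjusted p under 0.05). FCN1, a ficolin known from blood monocytes, was the most abundant, with 116, 131 and 98 counts in hypoxia, against 121, 143 and 148 in normoxia. In normalized CPM the hypoxic libraries lay below all normoxic ones, at 71.6 ± 3.73 in hypoxia and 88.1 ± 8.46 in normoxia (SD, n = 3 each), with a log2 fold change of -0.30 and an adjusted p of 0.464 from edgeR. Of the 6 leukocyte markers, CD14 was the 1 tested, with 24, 18 and 14 counts in hypoxia and 10, 8 and 18 in normoxia, overlapping groups and a log2 fold change of 0.59 (edgeR, adjusted p = 0.624). ITGAM had 9, 5 and 2 counts in hypoxia and 1, 1 and 2 in normoxia, PTPRC had 5, 3 and 1 in hypoxia and 6, 3 and 9 in normoxia, and CD3E and LYZ had at most 2 counts in any library. The part of leukocyte-type RNA in the FCN1 difference was not tested. C1QTNF1 and COLEC12 had log2 fold changes of 0.36 and 0.25, with overlapping groups. Of the 21 genes, 16 had under 10 counts in every library.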
